A study of Homo sapiens with 6 samples.

Results

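The free cytosolic aminoacyl-tRNA synthetases are the enzymes that work in the cytosol outside the multisynthetase complex, and 10 of them were followed here: AARS1, SARS1, GARS1, TARS1, NARS1 and HARS1 of class II, and WARS1, CARS1, YARS1 and VARS1 of class I. They were chosen by name, as genes that the platform annotation gives as the single symbol of an array feature, and each gene is represented by its brightest feature (by the mean of the 6 arrays). All 10 had a named feature, out of 14884 genes named in all. WARS1 and VARS1 had 2 features each. Phenylalanyl-tRNA synthetase (FARSA and FARSB), which also lies outside the complex, is not one of the 10 and had no named feature here.

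Total RNA of SUM159 cells, an established triple-negative breast carcinoma line, was hybridised to single-colour arrays after 72 h with 1 µM decitabine (3 arrays) or after 72 h in medium without the drug, called untreated (3 arrays). Medium was renewed each day in the treated cultures, and both groups shared the F-12 based growth medium with serum, insulin and hydrocortisone. Daily renewal is given for the treated cultures only. If the untreated ones were not renewed, an effect of renewal cannot be told apart from one of the drug. The titles of the untreated samples carry the dose as well, which was not read as a treatment, and nothing says whether those cells received the drug's solvent. The labels' protocol names the agent as a deoxy form of azacytidine, and the name decitabine follows the descriptions. All results come from a single cell line. The labels do not say that the replicates were separate cultures, so p-values cover no more than the differences among these arrays, part of which may be technical.

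An aminoacyl-tRNA synthetase joins an amino acid to the tRNAs that read its codons, and the charged tRNA is handed to an elongation factor for use on the ribosome. Class I and class II enzymes have unrelated catalytic folds. When charged tRNA runs short, the kinase GCN2 (EIF2AK4) phosphorylates the initiation factor eIF2, translation of most mRNAs slows, and the transcription factor ATF4 is made. ATF4 binds CCAAT/enhancer-binding protein and ATF response elements, and many synthetase genes are among its known targets, beside genes of amino acid synthesis such as ASNS.

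The deposited values were read as log2 levels from their range, 0.17 to 12.89, so every log2 change and fold here rests on that reading. Medians over all features were 2.37 to 2.98 on decitabine arrays and 2.29 to 3.03 on untreated arrays, and both arrays of replicate 1 had the high values. ESR1 and PGR, receptor genes absent from triple-negative tumours, were dim (at most 2.95 on decitabine and 2.43 on untreated arrays), whereas the mesenchymal gene VIM was bright (8.66 to 8.97 on decitabine arrays and 9.13 to 9.68 on untreated arrays). The luminal keratin gene KRT18 was bright as well (7.82 to 7.97 on decitabine arrays and 7.57 to 7.96 on untreated arrays). Other luminal genes were lower, on decitabine and untreated arrays in turn: KRT8 (3.41 to 3.83 and 3.68 to 4.45), FOXA1 (1.96 to 3.51 and 2.30 to 3.11) and GATA3 (5.32 to 5.79 and 5.49 to 5.74). Of 5 measured markers in the list that holds VIM, the epithelial adhesion gene EPCAM rose 2.14-fold (adjusted p = 0.00829, and 0.127 without the block) and the growth factor receptor gene EGFR fell 2.22-fold (adjusted p = 0.00504). Their summed linear level was 2510 to 2960 on decitabine arrays and 2570 to 2960 on untreated arrays. None of 6 luminal, 3 endothelial and 2 fibroblast markers passed with or without the block, and at an unadjusted p under 0.05 a single endothelial marker was higher with the block. Of the 5 leukocyte markers listed, 2 had a named feature, and their summed linear level was 154 to 164 in decitabine arrays, against 104 to 128 in untreated arrays. Most of that sum came from CD68, which changed by 0.50 and did not pass (adjusted p = 0.0739, and 0.297 without the block). CD14 changed by 0.72 from a dim level (adjusted p = 0.0247, and 0.115 without the block). The part of these markers in the results was not tested. Arrays measure RNA of the whole culture, so fewer cells of a kind and less RNA per cell cannot be told apart. Changes are decitabine minus untreated, from limma with the replicate number as a block, with p-values adjusted by the Benjamini-Hochberg method over all 14884 genes. A gene is said to have risen or fallen where the adjusted p is under 0.05.

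Most of these synthetase genes were lower after decitabine. AARS1, SARS1, WARS1, GARS1, CARS1 and YARS1 fell by at least 2-fold, TARS1 and NARS1 fell by less, VARS1 and HARS1 did not pass the test, and none rose. Thus 8 of 10 fell, where 5.37% of all tested genes fell, and 6 of 10 fell at least 2-fold, where 1.53% of all genes did so. None of the 10 rose, also at an unadjusted p under 0.05 and in the fit without the block, beside 7.79% of all genes that rose. The 10 members had a median log2 change of -1.21, made up of -1.06, -1.31 and -1.27 in the single pairs, beside a median of -0.02 over all genes. Without the replicate block the first 6 remained past the threshold and TARS1 and NARS1 did not, where 1.02% of all genes fell and 2.01% rose in that fit. With any pair of arrays left out, the blocked fit called none of the 14884 genes, and unadjusted p-values were under 0.05 for 8 to 9 of the 10 members, all of them lower. In those fits 2449 to 3514 of the 14884 genes had an unadjusted p under 0.05, both directions counted.

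**Figure D1:**
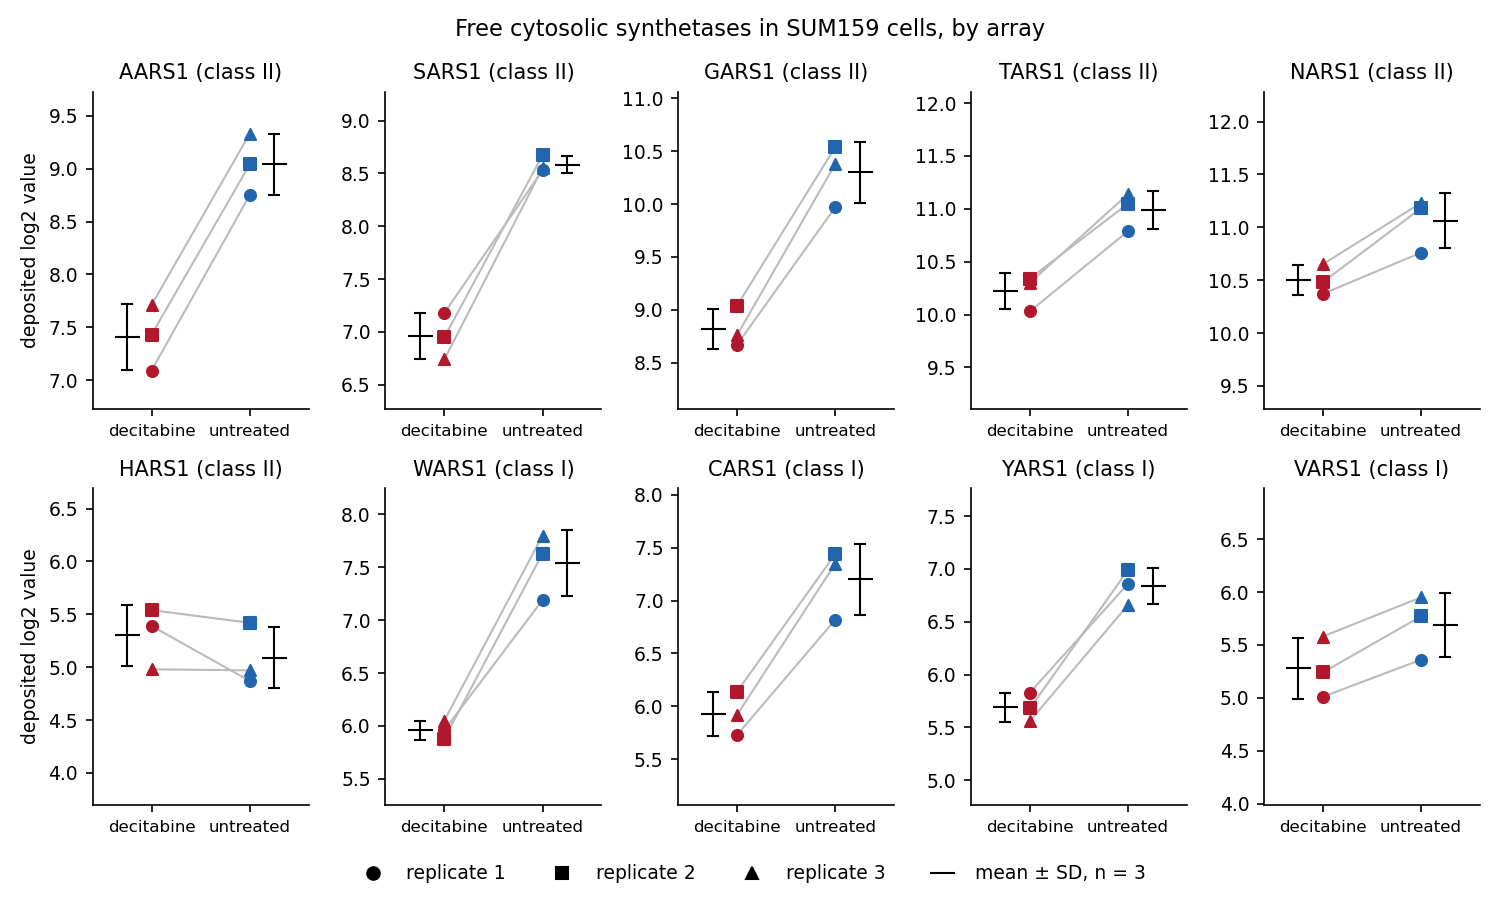
Deposited log2 value of each synthetase gene (vertical axes, all spanning the same number of log2 units) on the 3 decitabine arrays (red) and the 3 untreated arrays (blue), with grey lines joining arrays of the same replicate number and black bars for the mean ± SD (n = 3). In 8 panels every decitabine value lies below every untreated value, and in the HARS1 and VARS1 panels the groups overlap.

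Among the class II enzymes, AARS1 (Entrez Gene 16), which charges alanine tRNA and proofreads misattached serine, was the member with the most even change over the pairs. Its log2 values were 7.09, 7.43 and 7.71 on decitabine arrays, against 8.75, 9.04 and 9.33 on untreated arrays. The groups lay well apart, and the 3 pairs gave nearly the same difference (-1.66, -1.61 and -1.62). The change was -1.63 (SE 0.12, adjusted p = 0.00149), a 3.10-fold lower level.

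SARS1 (6301) charges serine tRNA and also the selenocysteine tRNA, whose serine is later converted. It had 7.18, 6.95 and 6.74 on decitabine arrays, against 8.53, 8.67 and 8.55 on untreated arrays. The untreated arrays were close to each other, and all decitabine arrays lay below them. Its change of -1.63 (SE 0.14, adjusted p = 0.00274) corresponds to a 3.09-fold lower level.

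GARS1 (2617) supplies glycyl-tRNA synthetase to the cytosol and to mitochondria. Its values were 8.67, 9.04 and 8.76 after decitabine, against 9.97, 10.54 and 10.38 in untreated cells. Every treated array was lower than every untreated one, and the change was -1.47 (SE 0.13, adjusted p = 0.00274), a 2.78-fold lower level.

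TARS1 (6897) charges threonine tRNA and NARS1 (4677) asparagine tRNA. TARS1 had 10.03, 10.34 and 10.30 on decitabine arrays, against 10.79, 11.05 and 11.14 on untreated arrays, a change of -0.77 (SE 0.12, adjusted p = 0.0139). NARS1 had 10.37, 10.48 and 10.65 on decitabine arrays, against 10.76, 11.18 and 11.23 on untreated arrays, a change of -0.56 (SE 0.13, adjusted p = 0.0429). The groups did not overlap for either gene, but the falls were 1.71-fold and 1.47-fold, and without the replicate block the adjusted p was 0.106 for TARS1 and 0.290 for NARS1.

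HARS1 (3035) encodes histidyl-tRNA synthetase, known also as the Jo-1 autoantigen of inflammatory myopathy, and was the one member with a positive change. Its values were 5.39, 5.54 and 4.98 on decitabine arrays, against 4.87, 5.42 and 4.97 on untreated arrays. The groups overlapped, and the pairs differed among themselves (0.52, 0.12 and 0.01). The change was 0.22 with a 95% interval of -0.15 to 0.58 (adjusted p = 0.405), whose lower end lies above the fitted change of each other member. That interval overlapped the one of VARS1 (-0.72 to -0.12), and no difference between members was tested.

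Among the class I enzymes, WARS1 (7453), which charges tryptophan tRNA and is known as a gene induced by interferon gamma, had 5.96, 5.88 and 6.05 on decitabine arrays. The untreated arrays had 7.19, 7.63 and 7.80. Decitabine arrays were close together and all below the untreated ones, and the change was -1.58 (SE 0.15, adjusted p = 0.00380), or 2.98-fold. The other, dimmer feature of WARS1 changed by -1.47 (SE 0.16 for the chosen feature and 0.15 for this one when all features were fitted).

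CARS1 (833) charges cysteine tRNA. It had 5.73, 6.14 and 5.92 after decitabine, against 6.82, 7.44 and 7.35 in untreated cells, a change of -1.27 (SE 0.13, adjusted p = 0.00417). YARS1 (8565), whose protein carries a cytokine-like domain beside its catalytic part, had 5.83, 5.68 and 5.56 after decitabine, against 6.86, 6.99 and 6.66 in untreated cells. Its change was -1.15 (SE 0.13, adjusted p = 0.00532). For both genes the groups were apart, by 2.42-fold and 2.21-fold on average.

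VARS1 (7407), which charges valine tRNA and associates with elongation factor complex eEF1, had 5.01, 5.24 and 5.58 on decitabine arrays, against 5.36, 5.77 and 5.95 on untreated arrays. It was lower in each pair (-0.35, -0.53 and -0.37), yet the groups overlapped. The change of -0.42 had a 95% interval of -0.72 to -0.12 and an adjusted p of 0.0813. It passed the threshold where the dimmer 50% of genes were left out of the fit (adjusted p = 0.0330). Its other feature changed by -0.21.

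**Figure D2:**
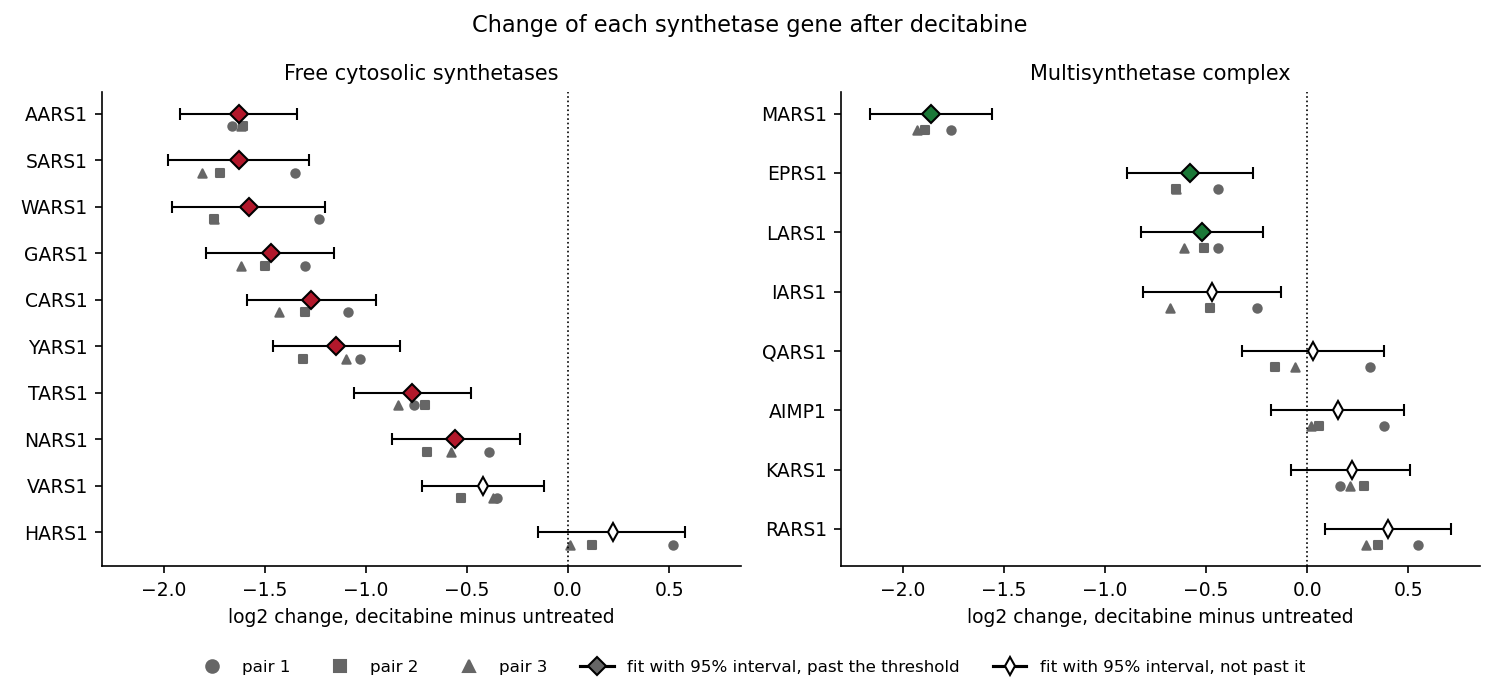
Log2 change, decitabine minus untreated, of the 10 free synthetase genes (left) and of 8 genes of the multisynthetase complex (right), with the fitted change and its 95% interval as diamonds (filled where the adjusted p is under 0.05) and the 3 pairs as grey symbols. Changes ran from -1.63 to 0.22 on the left and from -1.86 to 0.40 on the right.

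The fitted changes of the members differed in size, though no difference between members was tested. In the order of change, from AARS1 through SARS1, WARS1, GARS1 and CARS1 to YARS1, the range of the 3 pair values of each gene overlapped that of the next, so these neighbours were not set apart by their spread. The lowest YARS1 value (-1.31) and the highest (-1.03) lay apart from TARS1 (-0.84 to -0.71). TARS1 lay apart from NARS1 (-0.70 to -0.39) by a narrow gap, and NARS1 overlapped VARS1 (-0.53 to -0.35). HARS1 (0.01 to 0.52) lay apart from VARS1. At each of these gaps the fitted 95% intervals overlapped. They were -1.46 to -0.83 for YARS1, -1.06 to -0.48 for TARS1 and -0.87 to -0.24 for NARS1. For VARS1 and HARS1 they were -0.72 to -0.12 and -0.15 to 0.58. Of 4 class I genes 3 fell, with a median change of -1.21, and of 6 class II genes 5 fell, with a median of -1.12, so both classes held strong falls and one member that did not pass. Replicate 1 gave the smallest difference of the 3 pairs for SARS1, WARS1, GARS1, CARS1, YARS1, NARS1 and VARS1, and its arrays are those with the high medians. With replicate 1 left out, SARS1 changed by -1.76 and WARS1 by -1.75.

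Against all genes, AARS1 had 53 genes with a lower change, SARS1 55, WARS1 63 and GARS1 78, or 0.356% to 0.524% of the 14884 genes. CARS1 had 0.813% of genes below it, YARS1 1.11%, TARS1 3.07%, NARS1 6.23% and VARS1 10.6%, while HARS1 had 75.8%. The decitabine values lay wholly below the untreated values for 8 of 10 members, as they did for 8.74% of all genes.

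**Figure D3:**
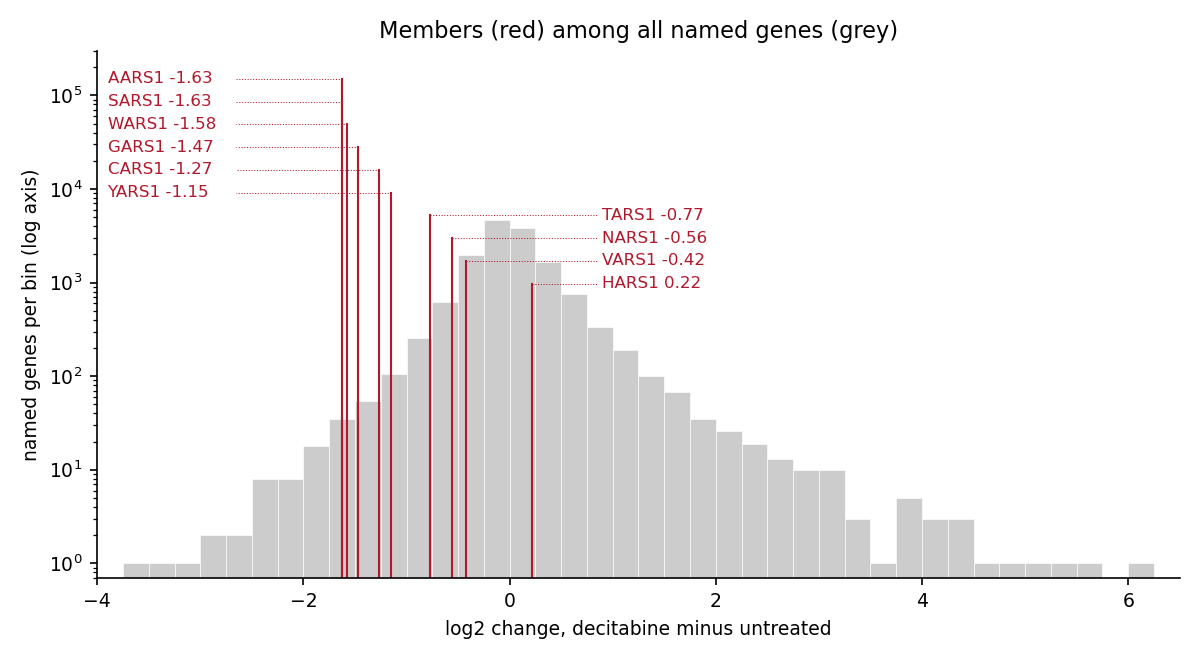
Histogram of the log2 change, decitabine minus untreated, of all 14884 named genes (grey, counts on a log axis, bins of 0.25 log2 units), with red lines at the changes of the 10 synthetase genes. The heights of the red lines only separate the labels. Of the 10 lines, 6 lie below -1, where few genes are found, and HARS1 lies at 0.22.

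The promoters of several members hold the core of the response element that ATF4 binds, and these sites are printed below. The genes were not chosen by sequence, but many synthetase genes are known ATF4 targets. A high share of members with the core could therefore be foreseen and is not independent evidence. The core was searched as TGATGNAA on both strands (TTNCATCA on the other) in RefSeq windows of GRCh38.p14 that run from 250 bases before to 50 after each annotated start. Of the 10 members, 8 had a window, 13 windows in all. Sites are shown 5′ to 3′ on the strand of the gene, with the matched core in capitals, for 5 members and, beside them, for MARS1 and IARS1 of the complex and for ASNS, the asparagine synthetase gene whose response element is a textbook example.
AARS1: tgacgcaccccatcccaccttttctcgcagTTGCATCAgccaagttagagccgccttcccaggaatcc
GARS1: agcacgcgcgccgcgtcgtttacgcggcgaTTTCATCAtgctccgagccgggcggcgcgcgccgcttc
CARS1: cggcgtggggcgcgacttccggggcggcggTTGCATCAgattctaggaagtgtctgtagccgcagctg
TARS1: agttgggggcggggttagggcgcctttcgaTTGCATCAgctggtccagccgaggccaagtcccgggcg
NARS1: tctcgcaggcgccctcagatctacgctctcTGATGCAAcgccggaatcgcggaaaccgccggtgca
MARS1: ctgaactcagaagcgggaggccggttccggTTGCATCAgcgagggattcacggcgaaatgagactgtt
IARS1: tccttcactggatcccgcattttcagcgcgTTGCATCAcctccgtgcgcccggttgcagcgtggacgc
ASNS: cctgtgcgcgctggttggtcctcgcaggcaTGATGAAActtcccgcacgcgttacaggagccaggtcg

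The AARS1 stretch (chr16:70289656-70289723, minus strand) has its core starting 187 bases before the start, and the GARS1 stretch (chr7:30594815-30594882, plus) 33 bases before the downstream of 2 annotated starts. In CARS1 (chr11:3057388-3057455, minus) the core starts 2 bases before the upstream of 2 annotated starts and spans it. In TARS1 (chr5:33440937-33441004, plus) it starts 2 bases after the downstream of 2 annotated starts. In NARS1 (chr18:57621787-57621852, minus) it starts 14 bases after the start. The MARS1 site (chr12:57488034-57488101, plus) starts 4 bases before the start and the IARS1 site (chr9:92293673-92293740, minus) 13 bases before. The ASNS site (chr7:97872439-97872506, minus) starts 68 bases before the upstream of 2 annotated starts. The other window of GARS1, CARS1, TARS1 and ASNS held no match. AARS1, CARS1, TARS1, MARS1 and IARS1 share the same 8 letters, NARS1 has their reverse complement, and GARS1 and ASNS differ at the free position.

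All 5 members with a core fell, by 1.47-fold (NARS1) to 3.10-fold (AARS1). SARS1 and WARS1, which also fell, and HARS1, which did not pass, had no match in their windows. Among the complex genes 2 of the 9 with a window held it, MARS1, which fell, and IARS1, which did not pass. Of genes with a window, 5 of 8 members (62.5%) held the core, beside 4.46% of all 27305 genes, and 5 of 13 member windows held it, beside 3.62% of 35116 windows. With the free position set to the letter that AARS1, CARS1, TARS1 and NARS1 share, a choice made after the sites were seen, 4 of 8 members and 1.08% of all genes held it. A match is a description of letters, and binding was not measured here. The member windows held 3 to 43 CpG dinucleotides (median 23), beside a median of 14 over all windows, and 46.7% to 72.7% G and C.

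**Figure D4:**
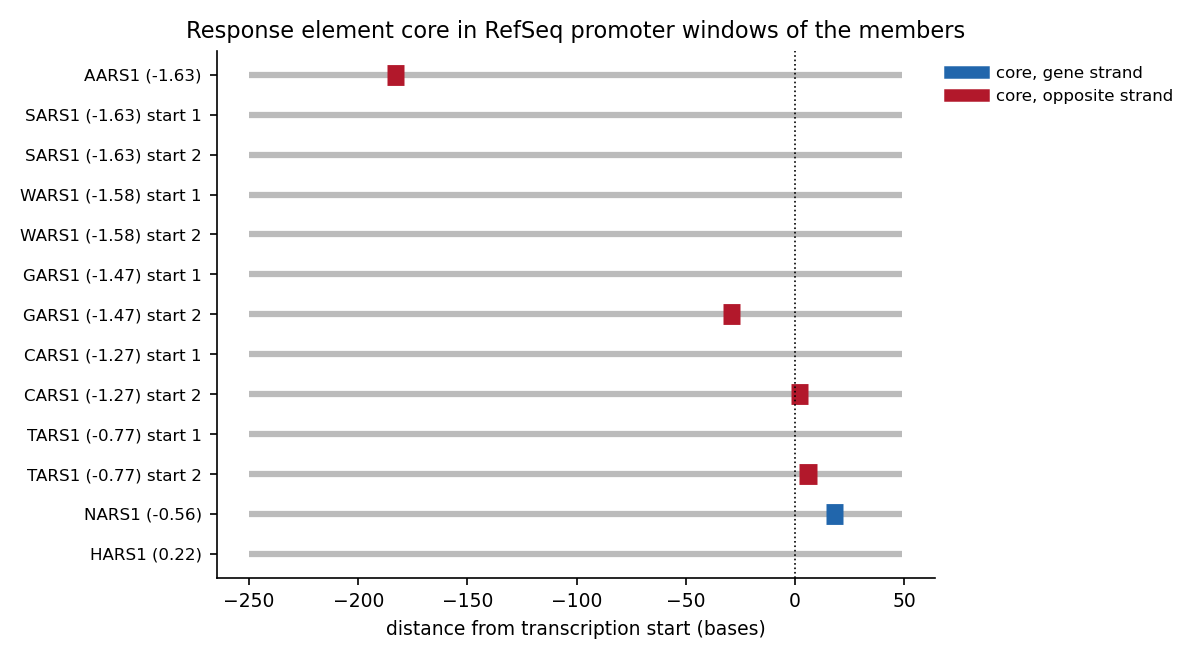
Position of the response element core in the RefSeq promoter windows of 8 members, as distance from the annotated transcription start in bases (horizontal axis), with the log2 change, decitabine minus untreated, beside each name. Blue marks the core on the strand of the gene and red on the opposite strand, and where a gene has 2 starts they are numbered by position on the chromosome. Matches lie in AARS1, GARS1, CARS1, TARS1 and NARS1.

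The multisynthetase complex holds the cytosolic synthetases for several other amino acids and 3 scaffold proteins. Of the 11 complex genes listed, 8 had a named feature, and 3 of these fell while none rose. Their median change was -0.22. Over all genes, 5.37% fell and 7.79% rose. One complex gene was higher at an unadjusted p under 0.05 with the block, and none without it. MARS1, methionyl-tRNA synthetase, had 5.97, 6.21 and 6.38 on decitabine arrays, against 7.73, 8.10 and 8.31 on untreated arrays, and its change of -1.86 (SE 0.12, adjusted p = 0.00116) was below that of every free synthetase. EPRS1, which charges glutamate and proline tRNAs, changed by -0.58 (adjusted p = 0.0347) and LARS1, for leucine, by -0.52 (adjusted p = 0.0438). EPRS1 and LARS1 missed the threshold without the block (0.184 and 0.265), while MARS1 did not (0.00640). IARS1, for isoleucine, changed by -0.47 and did not pass (adjusted p = 0.0813), but passed with quantile normalization (0.0471), with the dimmer 50% of genes left out (0.0354) and with an intensity trend (0.00945), so that 4 complex genes fell in each of these. QARS1, KARS1, RARS1 and the scaffold gene AIMP1 had changes of 0.03, 0.22, 0.40 and 0.15, none past the threshold (adjusted p of 0.0999 to 0.923). RARS1, for arginine, passed without the dim genes (0.0429) and with the trend (0.00900). The 2 sets of genes differ in count and median as given, and no test of that difference was made.

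Of 18 measured genes of ATF4 and its stress targets, 15 fell and 1 rose, with a median change of -1.72, and 11 fell and none rose without the block, where 1 was higher at an unadjusted p under 0.05. Of all genes, 5.37% fell and 7.79% rose with the block, and 1.02% fell and 2.01% rose without it. ATF4 itself had 7.13, 7.32 and 7.12 on decitabine arrays, against 8.24, 8.53 and 8.40 on untreated arrays, a change of -1.20 (SE 0.12, adjusted p = 0.00399). That is about the median change of the free synthetases (-1.21). ASNS changed by -3.62 (SE 0.14, adjusted p = 2.61e-04), DDIT4, an inhibitor of mTORC1, by -3.28, CTH, which forms cysteine, by -2.93, and SESN2, a stress-induced sestrin, by -2.74. These falls were larger than that of any free synthetase, but the 4 genes are named for having the largest changes of the list. Among the 15 that fell, the smallest change was -0.68 (PSPH). ATF5 was the gene that rose (1.10, adjusted p = 0.0302, and 0.104 without the block). The list was drawn up with earlier results of these samples known, so its direction is not independent evidence.

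EIF2AK4, the kinase that senses uncharged tRNA, had 7.57, 7.70 and 7.89 after decitabine, against 7.38, 7.48 and 7.76 in untreated cells. Its change was 0.18, with a 95% interval of -0.11 to 0.47 (adjusted p = 0.387). Of 6 measured genes of the eIF2 kinase group, EIF2AK3, which encodes the endoplasmic reticulum kinase PERK, rose by 0.62 (adjusted p = 0.0445, and 0.265 without the block) and none fell. One gene of that group was lower at an unadjusted p under 0.05 in either fit.

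Downstream of charging, 2 of 8 measured genes in the elongation factor list, which also holds the kinase gene EEF2K, fell and none rose. Across all genes, 5.37% fell and 7.79% rose. EEF2, which moves the ribosome along the mRNA, changed by -0.64 (adjusted p = 0.0227) and EEF1G, a subunit of the eEF1 complex, by -0.52 (adjusted p = 0.0419). Neither passed without the block (0.280 and 0.369), and with the mean of its 2 features EEF1G changed by -0.41 and missed the threshold (0.0750). The kinase gene EEF2K changed by 0.40 (95% interval 0.09 to 0.71, adjusted p = 0.0979). It was the one gene of this list higher at an unadjusted p under 0.05 with the block, and none was without it. Of 3 measured genes of proofreading outside the synthetases, DTD1, which removes D-amino acids from tRNA, changed by -0.52 (adjusted p = 0.0454, and 0.240 without the block).

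In tRNA maturation, 1 of 11 measured genes fell and 2 rose, where 5.37% of all genes fell and 7.79% rose. Counts this small, here and in the next list, describe the named genes only. TSEN15, a subunit of the tRNA splicing endonuclease, changed by -1.41 (SE 0.12, adjusted p = 0.00245), also past the threshold without the block. The ribonuclease P subunit genes RPP25 and RPP30 rose by 1.05 and 0.67 (adjusted p = 0.00799 and 0.0231), and neither passed without the block (0.0502 and 0.194). On the route that follows SARS1 to selenocysteine, 1 of 5 measured genes fell and 1 rose. SEPSECS, which completes selenocysteine on its tRNA, changed by -0.80 (adjusted p = 0.0168), and PSTK, the kinase of the preceding step, by 0.53 (adjusted p = 0.0422). Without the block these had adjusted p-values of 0.199 and 0.631.

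Of 7 measured genes that respond to interferon gamma, as WARS1 can, none passed limma's threshold over all 14884 genes with or without the block, 1 was higher at an unadjusted p under 0.05 with the block and none without it, and IRF9 had the largest change, 0.46 (adjusted p = 0.0735, and 0.0309 where the dimmer 50% of genes were dropped). Of 6 measured partners of secreted or nuclear synthetases, PARP1, a nuclear poly-ADP-ribose polymerase, rose by 0.75 (adjusted p = 0.0242, and 0.0992 without the block). Among all genes, 7.79% rose. TARS3, a paralogue of TARS1, changed by 0.64 (adjusted p = 0.122), with values of 5.45, 5.79 and 5.37 in decitabine arrays, against 4.99, 4.53 and 5.18 in untreated arrays. For the 17 mitochondrial synthetases and the 17 amino acid transporters listed, no feature carried a name, and they are not analysed here.

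The profile shared by the members, the mean of their values centred on each gene's own mean, was -0.59, -0.45 and -0.50 on decitabine arrays, against 0.27, 0.65 and 0.62 on untreated arrays. CARS1 and TARS1 lay nearest to the mean of the other 9 members (root mean square difference of 0.181 and 0.162 over the 6 arrays) and HARS1 farthest (0.728). Outside all lists, the 5 genes nearest to that profile were HERPUD2 (0.0395), DIAPH2 (0.0668), JAG1, a Notch ligand (0.0771), HTRA3, a serine protease (0.0836) and CEP120, a centrosomal protein (0.0920). Their changes were -1.10 (CEP120) to -0.89 (HTRA3). Likeness over 6 arrays of 2 groups mostly reflects the difference between the groups.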

How the data were processed

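Gene expression was measured on 6 single-colour arrays. The authors deposited one value per feature and array, read here as log2. Per the submitters' processing notes, the Transcriptome Analysis Console was used. The software version, summarisation, normalization and genome build are not stated in those notes or labels. Of 48226 features, 16098 carried a single symbol in the platform annotation. Current symbols came from RefSeq (GRCh38.p14) by Entrez Gene ID, where all 16098 matched. These gave 14884 genes. No background measure was used, and precision is limited by the small number of arrays.

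Groups were compared with limma 3.58.1 (lmFit, eBayes, two-sided) in R 4.3.3 on all 6 arrays, with the replicate number from the titles as a block. The block was set beforehand, as the comparison was to be paired by replicate number. Deviations from the group means correlated at 0.682, 0.595 and 0.558 between same-numbered arrays and at -0.483 to -0.006 between others. Centring within groups of 3 makes the others negative on balance where the same-numbered ones are positive, so that contrast is partly arithmetic. The fit was tested on simulated data. Alternatives were no block, quantile normalization, median centring, leaving out dim genes, the mean of a gene's features, an intensity trend, and leaving out pairs or arrays. Members and lists were chosen with earlier results of these data known. From each other pathway list, up to 4 genes past the threshold with the largest change are named, or the largest change where none passed, with ATF4, ASNS, EIF2AK4 and all complex genes. EEF2K, PSPH, ATF5 and IMPACT are named beside this rule. Promoter windows were searched in Python 3.11.15.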

Additional observations from a re-analysis of the deposited data

How the results depend on the processing

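The median change of the 10 members stayed within 1 SD (of the 3 pair medians) of the main value under every alternative, and 9 of 10 members had a change below 0 in each. With all 6 arrays, dropping the block, adding the trend or leaving out dim genes cannot alter a fitted change, so these bear on p-values only. Leaving out a pair is judged by a spread made of the same pairs, which is a weak check. The same 8 members fell with quantile normalization, median centring, the mean of all features or an intensity trend, and 9 did so with the dimmer 50% of genes left out. Without the replicate block, 6 members and 1 complex gene (MARS1) fell, and over all genes 152 fell and 299 rose, against 800 and 1159 with the block. With both arrays of a pair left out, 0 genes passed, members included (adjusted p of the 8 from 0.0707 to 0.297), and 2449 to 3514 genes had an unadjusted p under 0.05. That fit rests on 4 arrays. Without the block and without a single array, 1 to 6 members fell, 1 complex gene fell in each, and over all genes, leaving out decitabine replicates 1, 2 and 3 in turn, 98, 35 and 47 fell and 180, 95 and 152 rose; for untreated replicates 1, 2 and 3 in turn these were 156, 33 and 53 that fell and 321, 107 and 135 that rose. The cause of these differences was not tested. SARS1 was the only member past the threshold without decitabine replicate 2 or untreated replicate 2. The others were AARS1, SARS1 and WARS1 without decitabine replicate 1 or 3, SARS1 and WARS1 without untreated replicate 3, and the 6 without untreated replicate 1. Complex genes that rose numbered 1 (RARS1) with dim genes left out or an intensity trend. QARS1 changed sign without replicate 1 (-0.11) and, without the block, without decitabine replicate 2 (-0.08) or untreated replicate 1 (-0.20), and ranged from -0.11 to 0.12 over single pairs left out, never past the threshold. Mitochondrial synthetases gave no value.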

Other observations

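Of the 10749 tested genes with a RefSeq promoter window, 3.22% held the response element core used for the synthetases. It was held by 44 of 637 genes that fell (6.91%), 17 of 911 that rose (1.87%) and 285 of 9201 that did not pass (3.10%). Among genes that fell at least 2-fold it was held by 17 of 186 (9.14%). These shares were computed after the members' sites had been seen, 5 of the 44 genes are members, and no test was made. The 17 include AARS1, GARS1, CARS1, MARS1 and ASNS, whose sites were already printed above, so their share is not independent of those sites.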
